A study of Homo sapiens with 6 samples.

Results

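The interferon response and antigen presentation genes of DU145 cells were described over 2, 8 and 24 hours of treatment with hepatocyte growth factor (HGF). DU145 is an established human prostate cancer cell line, and HGF acts through c-MET, a receptor tyrosine kinase. The cells had been moved to medium with charcoal-treated serum, and then received either 25 ng/ml HGF or vehicle only. RNA of each of the 6 conditions (vehicle at 2, 8 and 24 hours, HGF at 2, 8 and 24 hours) was hybridised to 1 Affymetrix U133plus2.0 array. No condition was repeated, so each difference between treatments at 1 time stands without replicate error or p-value. The genes were chosen by name, 37 symbols in all: interferon-induced genes, STAT2 and IRF factors, subunits of the immunoproteasome, peptide loading proteins, and the HLA genes with their partner chains. A probe set was taken where the platform annotation gives it exactly 1 of these symbols. That found 67 probe sets for 36 genes, of 41091 probe sets for 19775 genes in the whole series, while STAT2 has no such probe set. Probe sets with more than 1 symbol were left out. Of these, 2 name a gene of the group, IFITM1 with IFITM2 or IRF9 with RNF31. A further 6 name HLA genes that are not among the 37.

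Interferons bind cell surface receptors whose JAK kinases phosphorylate STAT factors. STAT dimers, alone or with IRF9, then enter the nucleus and bind short promoter elements, the interferon-stimulated response element (ISRE) and the gamma-activated site (GAS). The genes behind these elements encode antiviral proteins and much of the machinery by which a cell shows peptides to T cells. In that machinery the immunoproteasome cuts proteins, the transporter TAP carries the peptides into the endoplasmic reticulum, tapasin loads them, and an HLA class I heavy chain with beta-2-microglobulin presents them. HLA-DM and the invariant chain CD74 serve the class II pathway, which is mostly that of professional antigen-presenting cells. Tumour cells often show less of the class I pathway than their tissue of origin, and interferon gamma raises it in many epithelial cells.

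Values are intensities, scaled here to a mean of 150 per array, with values under 30 raised to a floor of 30. A ratio is the log2 of HGF over vehicle of the same time, and that of a gene is the mean over its probe sets, of which those at the floor in both arrays add a ratio of 0. The share of probe sets over the floor ranged from 33.1% to 36.7% between arrays. Of the 36 genes, 31 were above it in at least 1 array, of 10791 in the series. The 8 hour pair is sensitive to scaling: by the selection rule given further on, 531 genes were higher and 1571 lower at 8 hours, but 1086 and 998 under quantile normalization. For ACTB the 3′ control probe set over the 5′ one, a reading of RNA integrity and labelling, lay between 1.13 and 1.17 in the 2 hour pair, 1.31 and 1.36 in the 8 hour pair, and 1.63 and 1.71 in the 24 hour pair. All 5 epithelial markers (KRT8, KRT18, KRT19, EPCAM and CDH1) were above the floor, with a summed level from 11157.5 to 13566.7 with vehicle and from 10774.4 to 15930.5 with HGF. By the same rule KRT19 was higher and EPCAM lower at 8 hours, and CDH1 lower at 24 hours. Of 7 leukocyte markers and 4 endothelial markers with a probe set, 0 were above it, with a highest value of 21.4 and 29.0, and of 6 fibroblast markers 1 was, COL1A1. Their part in the results was not tested.

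To show what the promoters of these genes hold, sequences from the 250 bases before the start of 5 genes are given, from RefSeq on GRCh38.p14. ISG20 is shown as the gene with the largest ratio, TAP1 because its window overlaps that of PSMB9, HLA-DMB as the lowest gene at 24 hours, IFIT1 as 1 of the 2 genes whose mean was lower in all 3 HGF arrays than in any vehicle array, and B2M because it moved apart from the HLA chains at 8 hours. Capitals mark the letters of an ISRE (GAAA, any 2 bases, GAAA), of an AP-1 element (TGANTCA) or of a Y box (CTGATTGG), on either strand. ISG20 lies on chromosome 15 (chr15:88638766-88639015, plus strand), TAP1 on chromosome 6 (chr6:32853705-32853954, minus strand), HLA-DMB on chromosome 6 (chr6:32941029-32941278, minus strand), IFIT1 on chromosome 10 (chr10:89392373-89392622, plus strand) and B2M on chromosome 15 (chr15:44711267-44711516, plus strand). Each stretch ends at the base before an annotated transcript start of its gene.
ISG20: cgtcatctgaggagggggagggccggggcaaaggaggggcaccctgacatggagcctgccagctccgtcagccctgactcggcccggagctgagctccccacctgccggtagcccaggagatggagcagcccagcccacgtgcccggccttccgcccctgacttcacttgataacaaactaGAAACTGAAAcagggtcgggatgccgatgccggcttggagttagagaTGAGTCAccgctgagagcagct
TAP1: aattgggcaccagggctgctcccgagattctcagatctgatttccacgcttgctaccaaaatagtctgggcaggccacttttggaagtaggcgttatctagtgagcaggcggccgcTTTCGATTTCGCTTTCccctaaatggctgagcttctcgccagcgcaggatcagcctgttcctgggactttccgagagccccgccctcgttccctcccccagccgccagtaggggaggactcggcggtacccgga
HLA-DMB: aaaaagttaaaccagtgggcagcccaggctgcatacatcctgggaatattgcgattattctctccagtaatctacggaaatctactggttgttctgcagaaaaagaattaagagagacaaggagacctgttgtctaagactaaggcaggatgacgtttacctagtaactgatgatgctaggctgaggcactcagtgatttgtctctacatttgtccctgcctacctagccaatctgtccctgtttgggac
IFIT1: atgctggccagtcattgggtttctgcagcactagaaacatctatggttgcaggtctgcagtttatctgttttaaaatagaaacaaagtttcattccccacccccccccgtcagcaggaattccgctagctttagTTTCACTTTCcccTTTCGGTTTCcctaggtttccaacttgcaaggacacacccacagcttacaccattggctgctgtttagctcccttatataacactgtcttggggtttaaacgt
B2M: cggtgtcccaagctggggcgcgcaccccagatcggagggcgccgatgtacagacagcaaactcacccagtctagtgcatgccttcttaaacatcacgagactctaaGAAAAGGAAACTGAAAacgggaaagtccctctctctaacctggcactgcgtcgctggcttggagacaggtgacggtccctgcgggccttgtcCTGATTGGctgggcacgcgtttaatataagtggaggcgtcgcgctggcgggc

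In the ISG20 window 1 ISRE begins 69 bases and 1 AP-1 element 22 bases before the start. The capital run of TAP1 holds 2 overlapping ISRE matches, 134 and 128 bases before its start, and IFIT1 has 2 separate ones at 116 and 103. B2M has 2 overlapping ISRE matches at 144 and 138 and a Y box at 52. The window of HLA-DMB held no exact match to the motifs searched, GAS (TTCNNNGAA) included, and neither did that of PSMB9. TAP1 and PSMB9 are transcribed away from each other, with 487 bases between their starts, and their windows share 13 bases. Of the 37 genes, 31 have a window from 250 bases before to 50 after a start, and 20 of these (64.5%) hold an ISRE on either strand, against 4.38% of 27305 genes in the table. For GAS the numbers were 9 (29.0%) and 9.38%, and for AP-1 3 (9.68%, ISG20, IFIT5 and MX1) and 9.37%. For the Y box they were 5 (16.1%, B2M, HLA-B, HLA-C, HLA-F and HLA-DMA) and 4.75%. GAS reads the same on both strands, and an ISRE may overlap it. The genes were chosen as interferon-induced, so the share with an ISRE describes the choice. IRF7, IFIT2, IFITM2, OAS2, OASL and HLA-E have no window.

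At 24 hours the genes lay mostly on the low side with HGF, and ISG20 stood apart from them on the high side. Of the 31 genes above the floor, 23 had a ratio below 0 and 4 above 0, where 43.6% of the 10791 genes of the series were below and 51.2% above. Their median log2 ratio was -0.25, against 0.01 for all genes, but -0.049 with a floor of 60. Without the probe sets ending in _s_at or _x_at it was -0.0087, over fewer genes. Genes with only such probe sets, PSMB8 and TAP1 among them, drop out there. B2M and HLA-F then keep only a probe set under the floor, which gives a ratio of 0. The HGF value at 24 hours was below all 3 vehicle arrays for 15 of the 31 (48.4%), against 26.6% of all genes. It was above all 3 for 2 (ISG20 and HLA-E), against 21.1%. Among genes with at least 1 probe set above the floor in all 6 arrays, the count below was 12 of 23, against 28.3% of 8897. With a floor of 60 it was 9 of 31, against 19.3% of all genes. By role it took in 1 of 3 transcription factors, 3 of 6 IFIT and IFITM genes, 4 of 8 other interferon-induced genes, 2 of 3 immunoproteasome subunits, 2 of 3 peptide loading genes, 1 of 5 class I chains and 2 of 3 class II genes. In total RNA of a culture, fewer cells that express a gene and less RNA per cell cannot be told apart.
At 2 hours 12 of the genes were above 0 and 17 below (38.4% and 55.8% of all genes), with a median of -0.02. Then 4 were above all 3 vehicle arrays and 6 below, against 18.5% and 18.2% of all genes. After 8 hours 19 were above 0 and 12 below (45.3% and 51.6% of all genes), with a median of 0.07 that became 0.25 under quantile normalization. At that time 12 were above all 3 vehicle arrays (38.7%, against 35.3% of all genes) and 6 below (19.4%, against 34.5%). Quantile normalization gave 18 above (58.1%, against 41.2%) and 4 below (12.9%, against 30.8%). Between vehicle arrays the median of the genes was 0.00 for 8 over 2 hours, 0.04 for 24 over 2 hours and 0.00 for 24 over 8 hours. The 3 comparisons of HGF with vehicle share no array, but each count against all 3 vehicle arrays uses the same 3.

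**Figure D1:**
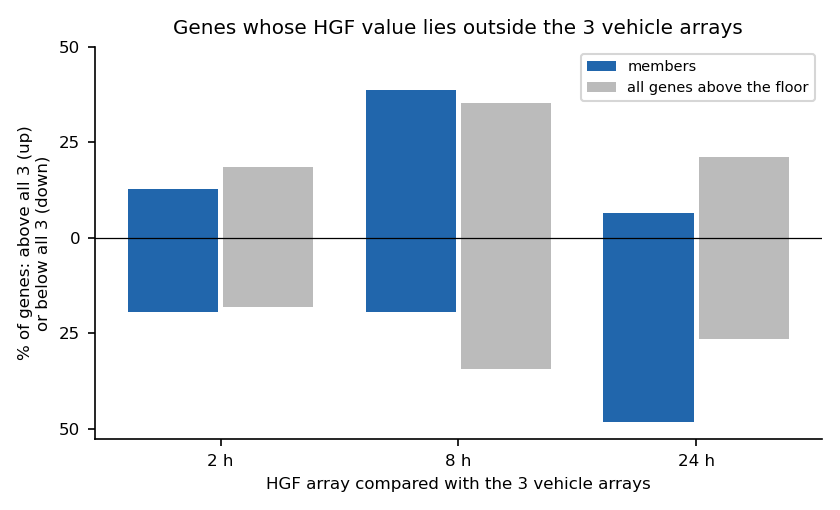
Share of genes (y axis, %) whose HGF value lies above all 3 vehicle arrays (bars up) or below all 3 (bars down) at 2, 8 and 24 hours (x axis), for the 31 interferon response and antigen presentation genes above the floor (blue) and all 10791 genes above it (grey), 1 array per condition. At 24 hours the blue bar reaches 48.4% downwards and the grey bar 26.6%.

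The selection rule of the study asks for 1 probe set that differs 2-fold or more, and for a gene mean that differs 1.41-fold or more the same way. Few of the 31 genes passed it. At 2 hours the count was 0 higher and 0 lower, where 0.769% and 0.102% of all genes passed. At 8 hours it was 1 higher, ISG20, and 0 lower, against 4.92% and 14.6%. At 24 hours ISG20 passed as higher, against 1.89% of all genes, and PSMB9 and HLA-DMB as lower (2 of 31, 6.45%), against 1.02%. Among vehicle arrays IRF9 passed as higher and 0 genes as lower for 8 over 2 hours, against 0.519% and 0.361% of all genes. For 24 over 2 hours 0 passed, against 0.259% higher and 2.13% lower, and for 24 over 8 hours 0 as well, against 0.454% and 5.44%. Just under the 2-fold limit at 8 hours lay 1 probe set each of HLA-E (0.99) and IFIT3 (-0.92), IFIT1 (-0.90) and PSMB10 (0.90).

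**Figure D2:**
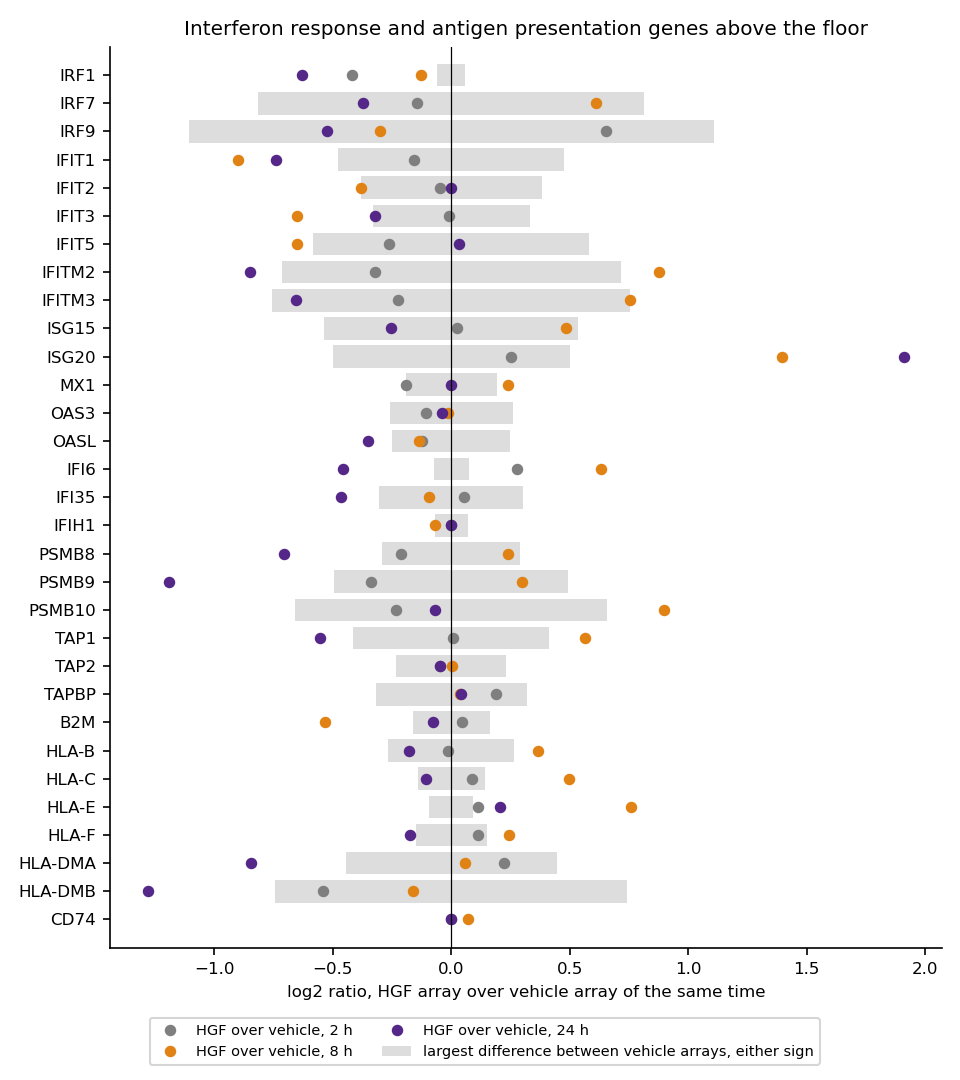
Log2 ratio of HGF over vehicle (x axis) of the 31 genes above the floor (y axis) at 2 hours (grey points), 8 hours (orange) and 24 hours (purple), 1 array per condition. The grey bar of a gene spans the largest difference between any 2 vehicle arrays, drawn to both sides of 0. ISG20 at 24 hours reaches 1.91 and HLA-DMB -1.28, both outside their bars.

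ISG20, an exonuclease that degrades single-stranded RNA and is induced by interferons, was the gene of the group with the largest ratios. Its brighter probe set read 97.4, 91.9 and 138.7 in the vehicle arrays of 2, 8 and 24 hours, and 133.3, 275.9 and 605.6 in the HGF arrays. The other read 122.3, 107.2 and 142.0 with vehicle, and 126.6, 246.2 and 459.9 with HGF. On both probe sets the HGF arrays of 8 and 24 hours were above every vehicle array, while at 2 hours the HGF value lay within the vehicle range. The gene's log2 ratios were 0.25, 1.39 and 1.91 in order of time, where vehicle arrays differed among themselves by at most 0.50. With the vehicle arrays of the other times as reference it was 1.07 at 8 hours and 2.34 at 24 hours. Among the HGF arrays alone ISG20 was the 1 gene of the group to pass as higher, for 8 over 2 hours (3.68% of all genes), 24 over 2 hours (1.5%) and 24 over 8 hours (4.24%). As lower 0 passed for 8 over 2 hours (8.4% of all genes) and 24 over 2 hours (3.11%), and IFITM2 and IFI6 for 24 over 8 hours (2.19%).

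**Figure D3:**
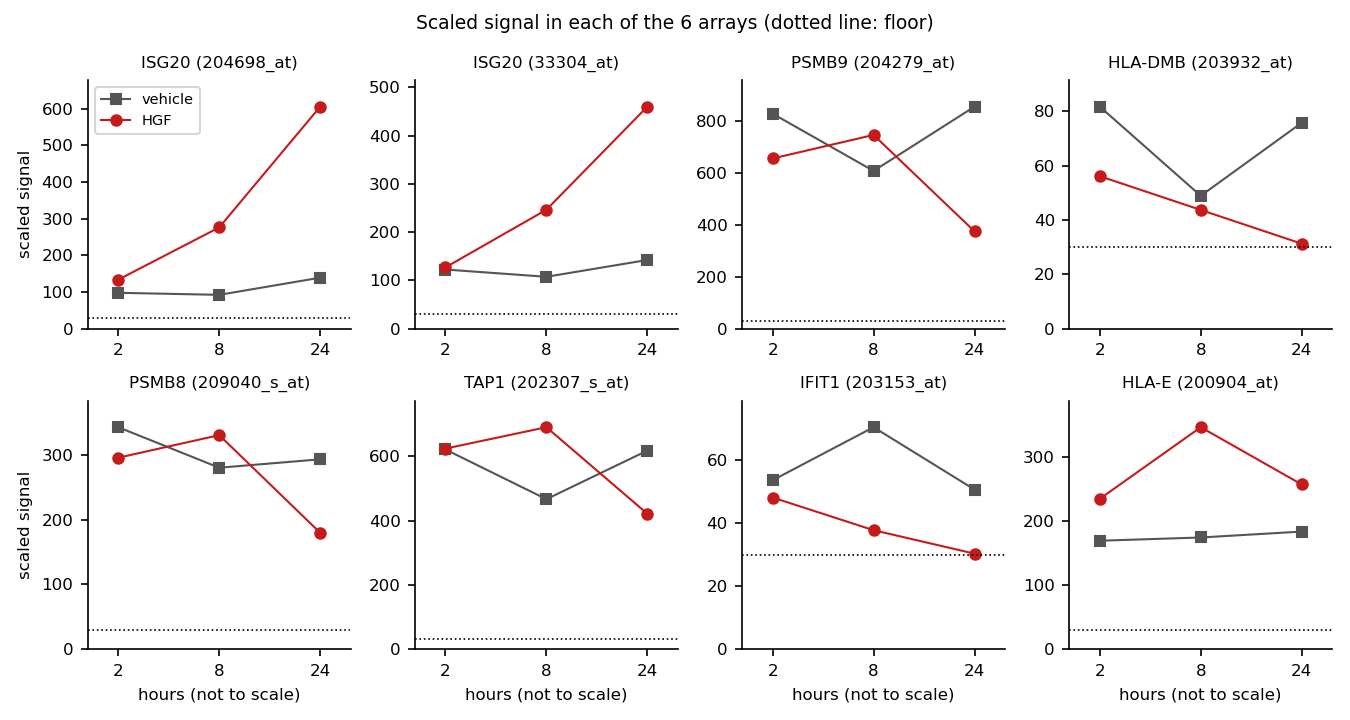
Scaled signal (y axis, linear from 0) of 8 probe sets of ISG20, PSMB9, HLA-DMB, PSMB8, TAP1, IFIT1 and HLA-E at 2, 8 and 24 hours (x axis, evenly spaced) for vehicle (grey squares) or HGF (red circles). Each point is 1 array, lines join arrays of 1 treatment, and a dotted line marks the floor, 30. ISG20 reaches 605.6 with HGF at 24 hours, while PSMB9 reads 375.2 there and 857.1 with vehicle.

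Of the immunoproteasome subunits PSMB9 passed the rule as lower with HGF at 24 hours, and PSMB8 and PSMB10, with ratios of -0.71 and -0.07, did not. These subunits replace the constitutive catalytic subunits PSMB5, PSMB6 and PSMB7 when interferon gamma is present, which alters the peptides a proteasome cuts. PSMB9 read 829.9, 608.7 and 857.1 in the vehicle arrays of 2, 8 and 24 hours, and 656.8, 747.6 and 375.2 with HGF. Its 24 hour HGF value was the lowest of the 6, with a log2 ratio of -1.19, while that of 8 hours lay within the vehicle range (0.30). With both earlier vehicle arrays as reference the 24 hour ratio was -0.92, which does not pass the rule. PSMB8 read 343.1, 280.5 and 293.4 with vehicle and 295.9, 330.8 and 179.8 with HGF, again with its lowest value in the HGF array of 24 hours (-0.71). PSMB10 had 150.8, 124.8 and 197.0 with vehicle and 128.1, 232.7 and 187.7 with HGF, so its highest value was that of HGF at 8 hours (0.90), and its ratio at 24 hours was -0.07. With the vehicle arrays of the other times as reference these became 0.43 and 0.45.
The constitutive counterparts had ratios near 0 at 24 hours: 0.00 for PSMB5, -0.06 for PSMB6 and -0.07 for PSMB7. PSME1, a subunit of the PA28 activator that interferon gamma also raises, was at -0.85 and had read 700.2 with vehicle and 388.4 with HGF. POMP, the chaperone that assembles new proteasomes, passed the rule as higher (0.75). At 8 hours all 3 immunoproteasome subunits and all 3 counterparts had ratios above 0, from 0.18 for PSMB7 to 0.90 for PSMB10. Against the vehicle arrays of 2 and 24 hours PSMB9 was at -0.17 and PSMB8 at 0.06 there, so the sign for PSMB9 depends on the reference.

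PSMB8, PSMB9, TAP1, TAP2, HLA-DMA and HLA-DMB are neighbours in the class II region of the major histocompatibility complex on chromosome 6. All 6 are among the 15 genes below all 3 vehicle arrays with HGF at 24 hours (26.6% of all genes), where the ratios of 5 lay between -0.55 and -1.28 and that of TAP2 was -0.05. HLA-DMB, the beta chain of the peptide editor HLA-DM, read 81.7, 48.8 and 75.7 with vehicle and 56.1, 43.7 and 31.2 with HGF. It was lower at each of the 3 times, with log2 ratios of -0.54, -0.16 (0.21 under quantile normalization) and -1.28, but at 2 hours the HGF value lay within the vehicle range. The vehicle arrays alone differed by up to 0.74 in log2, and with a floor of 60 the 24 hour ratio was -0.34. HLA-DMA, the alpha chain, read 45.6, 56.7 and 62.1 with vehicle and 53.2, 59.0 and 34.6 with HGF, a ratio of -0.84 at 24 hours. Both probe sets are dim, since the highest value was 62.1 for HLA-DMA and 81.7 for HLA-DMB. CD74, the invariant chain, was above the floor in 1 array only, HGF at 8 hours, with 34.7 on 1 of 3 probe sets.
TAP1, a subunit of the peptide transporter, read 621.0, 466.3 and 617.6 with vehicle and 623.7, 690.3 and 420.8 with HGF, so it was the highest of the 6 arrays at 8 hours (0.57) and the lowest at 24 hours (-0.55). With the vehicle arrays of the other times as reference these ratios were 0.16 and -0.35. For the other subunit, TAP2, the brightest probe set read 299.6, 330.2 and 216.6 with vehicle and 289.2, 248.5 and 208.9 with HGF. Its next probe set read 164.0, 157.3 and 154.9 and then 169.5, 212.0 and 140.8, and thus moved the other way at 8 hours. By RefSeq order the neighbour on the HLA-DMA side is BRD2, a chromatin reader outside antigen presentation, which had ratios of 0.39, 0.10 and 0.19. TAPBP, which encodes tapasin and lies farther along the chromosome, read 504.3, 638.7 and 607.3 with vehicle and 520.4, 950.5 and 651.4 with HGF on its brightest probe set. Its next probe set had a ratio of -0.47 at 8 hours, where the brightest had 0.57, and the gene's ratios were 0.19, 0.04 and 0.04.

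**Figure D4:**
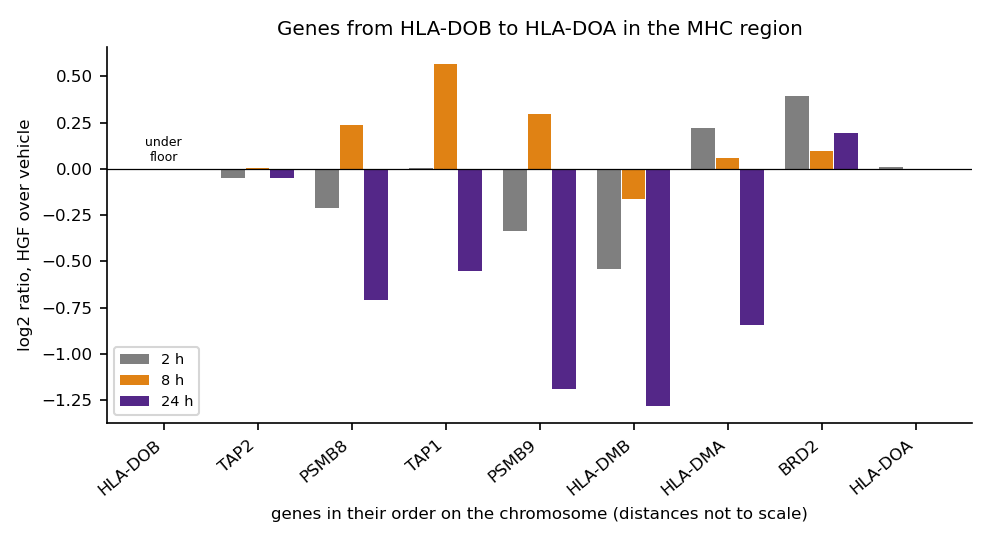
HGF over vehicle as a log2 ratio (y axis) at 2 hours (grey), 8 hours (orange) and 24 hours (purple) for the protein-coding genes from HLA-DOB to HLA-DOA in RefSeq order (x axis, distances not to scale), 1 array per condition. At 24 hours the bars run from -0.55 for TAP1 to -1.28 for HLA-DMB over 5 neighbours, with TAP2 at -0.05 and BRD2 at 0.19 beside them. HLA-DOB was under the floor in all arrays. HLA-DOA had ratios of 0.01 or less in size, which the floor sets. Its brightest probe set exceeded the floor only with HGF at 2 hours (30.8).

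For the class I chains the largest ratios were at 8 hours, where beta-2-microglobulin went one way and the HLA heavy chains the other. B2M, the light chain that every class I molecule needs, read 3750.5, 4586.4 and 4608.8 with vehicle and 4073.3, 2784.0 and 4053.8 with HGF on its brightest probe set. On the next it read 4011.2, 4587.5 and 4184.9 and then 4072.7, 2488.6 and 4041.3. On both, the HGF array of 8 hours was the lowest of the 6, with log2 ratios of -0.72 and -0.88, while at 2 and 24 hours the ratios lay between -0.19 and 0.12. A further probe set was under the floor throughout, so the gene's ratio at 8 hours was -0.53. It was -0.66 under quantile normalization and -0.43 against the vehicle arrays of the other times.
All 12 probe sets of HLA-B, HLA-C, HLA-E and HLA-F above the floor had a ratio above 0 at 8 hours, from 0.31 to 0.99. The genes' ratios were 0.37 for HLA-B, 0.50 for HLA-C, 0.76 for HLA-E and 0.24 for HLA-F (0.21 for HLA-B under quantile normalization). Each HGF value of these genes at 8 hours was above all 3 vehicle arrays, as held for 35.3% of all genes. Of the 12 probe sets 11 end in _x_at, a name for probe sets whose probes may also bind related transcripts, so levels of single HLA genes cannot be separated by them. The 1 probe set without that suffix belongs to HLA-E, the ligand of the natural killer cell receptor NKG2A. It read 169.3, 174.4 and 183.6 with vehicle and 234.7, 346.7 and 257.2 with HGF, so all 3 HGF arrays were above all 3 vehicle arrays. As a mean over its probe sets HLA-E was the 1 gene of 31 of which this held (4.77% of all genes), with ratios of 0.11, 0.76 and 0.21. Its remaining probe sets had ratios between -0.26 and 0.13 at 2 and 24 hours. At 24 hours HLA-B was at -0.18, HLA-C at -0.11 and HLA-F at -0.17.

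**Figure D5:**
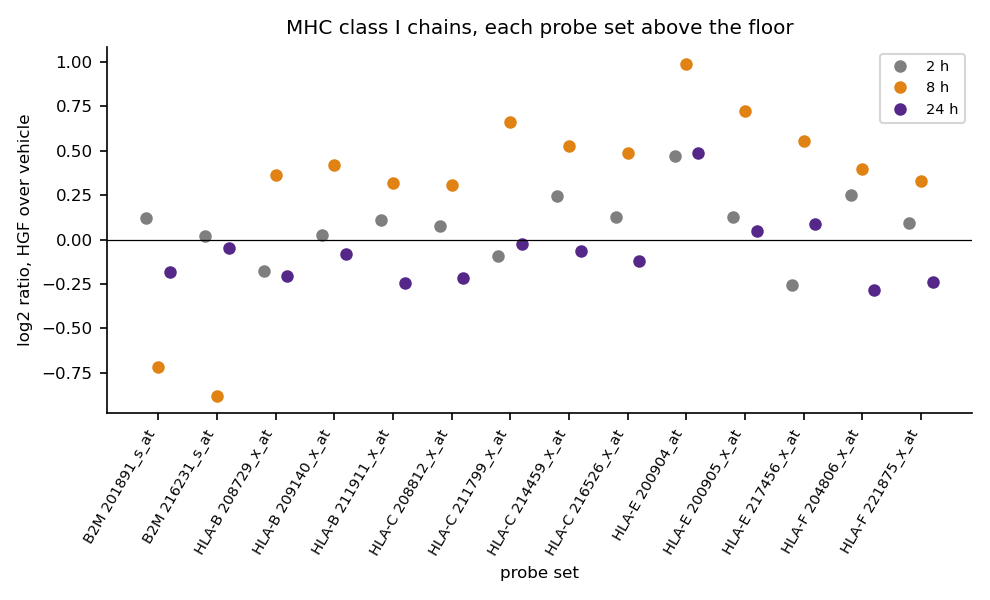
HGF over vehicle as a log2 ratio (y axis) of each probe set above the floor (x axis) for B2M, HLA-B, HLA-C, HLA-E and HLA-F at 2 hours (grey), 8 hours (orange) and 24 hours (purple), 1 array per condition. At 8 hours the 2 probe sets of B2M lie at -0.72 and -0.88 and the 12 of the HLA chains between 0.31 and 0.99.

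Among the transcription factors, IRF1, a direct target of interferon gamma signalling and an activator of class I and immunoproteasome genes, was lower in all 3 HGF arrays than in any vehicle array as a mean over its probe sets. Its brighter probe set read 62.1, 64.5 and 85.9 with vehicle and 49.8, 70.9 and 51.4 with HGF, where the 8 hour HGF value lay within the vehicle range. The other read 57.3, 52.5 and 42.9 with vehicle and 40.02, 40.04 and 13.1 with HGF, without overlap. The gene's ratios were -0.42, -0.13 and -0.63 (the last at least that far down, since 1 value was at the floor), while the vehicle means differed by at most 0.06. That small difference joins probe sets that moved apart, since vehicle at 24 over 2 hours was 0.47 on the brighter and -0.42 on the other, about the size of the HGF ratios. At 8 hours the sign depends on the scaling, with 0.22 under quantile normalization. IRF7, the factor that amplifies interferon production, read 63.8, 72.7 and 112.2 with vehicle and 57.7, 111.1 and 86.6 with HGF. IRF9, the DNA-binding partner of STAT dimers, read 26.8 (under the floor), 64.6 and 57.1 with vehicle and 47.1, 52.5 and 39.7 with HGF. For both the ratios (-0.15, 0.61 and -0.37, and 0.65, -0.30 and -0.52) were no larger than the differences between vehicle arrays, which reached 0.82 and 1.11. With the vehicle arrays of the other times as reference IRF7 was at 0.35 at 24 hours, the opposite sign. By that reference IRF9 was at -0.37 at 2 hours and 0.34 at 8 hours, again with the opposite sign in each case.
IFIT proteins bind foreign RNA and block its translation. IFIT1 read 53.6, 70.4 and 50.6 with vehicle and 48.1, 37.7 and 30.3 with HGF, so the treatments did not overlap. Its log2 ratios were -0.16, -0.90 (-0.54 under quantile normalization) and -0.74. With a floor of 60 they were 0.00, -0.23 and 0.00. All 3 HGF arrays lay below all 3 vehicle arrays for IFIT1 and IRF1 of the 31 genes, and for 4.27% of all genes. IFIT3 was at -0.01, -0.65 and -0.32, IFIT5 at -0.26, -0.65 and 0.03, and IFIT2 at -0.05, -0.38 and 0.00. Where an HGF value under the floor met a vehicle value above it, the ratio understates the difference, as for IFIT2, IFIT3 and IFIT5 at 8 hours. A probe set with both values under the floor adds 0, as 1 of IFIT5 did at 24 hours. All 4 IFIT genes were thus on the low side at 8 hours, but all were dim, with highest values from 50.9 for IFIT2 to 106.7 for IFIT5. With the vehicle arrays of the other times as reference the 8 hour ratios were -0.46 for IFIT1, -0.40 for IFIT3, -0.23 for IFIT5 and -0.02 for IFIT2.
The IFITM proteins restrict virus entry at membranes. IFITM2 read 403.4, 346.5 and 569.1 with vehicle and 322.7, 636.3 and 315.9 with HGF, the highest of the 6 arrays at 8 hours and the lowest at 24 hours. IFITM3 read 302.0, 250.6 and 422.7 with vehicle and 258.4, 422.0 and 268.4 with HGF, with ratios of the same signs (-0.23, 0.75 and -0.66), but its HGF values lay within the vehicle range. Each has 1 probe set here, an _x_at one, so the similar transcripts may not be separated. The vehicle arrays of these genes differed by up to 0.72 and 0.75, and with both earlier vehicle arrays as reference the 24 hour ratios were -0.24 and -0.04. IFITM1 was under the floor in all arrays.

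Among the remaining interferon-induced genes ISG15, a ubiquitin-like modifier, was the brightest. It read 413.6, 339.1 and 491.3 with vehicle and 420.3, 474.9 and 412.4 with HGF, all HGF values within the vehicle range, and its ratios at 8 and 24 hours (0.49 and -0.25) were 0.08 and 0.14 with the vehicle arrays of the other times as reference. OAS3, which makes the second messenger that activates RNase L, read 172.0, 183.9 and 128.5 and then 148.0, 180.8 and 121.5 on the probe set above the floor. IFI35 was at 98.9, 94.6 and 80.2 with vehicle and 102.6, 88.5 and 58.1 with HGF, a ratio of -0.47 at 24 hours. IFI6, a mitochondrial inhibitor of apoptosis, had 43.3, 41.3 and 41.1 with vehicle and 52.4, 64.0 and 25.2 with HGF, so that it was above the vehicle arrays at 2 and 8 hours and below them at 24 hours. OASL, a relative of the OAS enzymes without their activity, was at -0.12, -0.13 (0.25 under quantile normalization) and -0.35. MX1, a GTPase that traps viral particles, and IFIH1, a sensor of double-stranded RNA, had highest values of 35.4 and 34.6, close to the floor. OAS1, OAS2, IFI27, IFI44 and IFITM1 were under the floor in all 6 arrays, the highest value among them being 22.5, so no ratio is given.

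The effect shared by the 3 times was tested with limma on log2 values, blocked by time. The fit took in 10002 genes that exceeded the floor on 3 or more arrays, 27 of them of the group. Its error is how far the ratio of HGF over vehicle differs from time to time. A ratio that grows with time, as that of ISG20, adds to this error. By limma 0 genes of the series (0%) and 0 of the 27 passed an adjusted p of 0.05. At an unadjusted p of 0.05, 403 genes passed, 2.55% as higher and 1.48% as lower, and of the 27 1 as higher and 2 as lower. They were ISG20 (mean log2 ratio 1.19, standard error 0.34, higher at 3 of 3 times), IFIT1 (-0.60, standard error 0.19) and HLA-DMB (-0.66, standard error 0.24), the last 2 lower at 3 of 3 times. The limma adjusted p was 0.912 for each of them. Without the arrays of 2, 8 or 24 hours, 2, 6 and 1 of the 27 were under the unadjusted 0.05, against 3.37%, 7.52% and 4.84% of all genes. The 6 without the arrays of 8 hours were all lower: IRF1, IFITM2, IFITM3, PSMB8, PSMB9 and HLA-DMB. In that fit 752 genes of the series were under 0.05, 377 of them lower, and 0 after adjustment. At the time left out IFITM2, IFITM3, PSMB8 and PSMB9 had ratios above 0 (0.88, 0.75, 0.24 and 0.30). IRF1 and HLA-DMB were below 0 there (-0.13 and -0.16). For PSMB9, whose ratios differ in sign between times, the mean was -0.41 with a standard error of 0.30 (limma adjusted p = 0.912).

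The rest of the pathway was read from lists of other genes, to which the shares of all genes that passed the rule, given above, apply. At 8 hours these were 4.92% as higher and 14.6% as lower. The lists were not read under quantile normalization. Of 18 genes of interferon receptors, kinases and their regulators 17 had a probe set and were above the floor, and 0 passed the rule at 2 or 24 hours. At 8 hours SOCS3, an inhibitor of JAK kinases (0.70), and IRF2BP2, a corepressor (0.61), were higher, and PIAS1, a SUMO ligase that restrains STAT factors (-0.88), and the receptor chain IFNGR1 (-0.58) were lower. SOCS1, the other main inhibitor, was under the floor in all vehicle arrays (8.78, 1.46 and 1.81) and in the HGF array of 2 hours (11.5), and read 34.6 and 43.5 with HGF at 8 and 24 hours on its brightest probe set, not far above the floor. Of 8 interferon genes with a probe set 0 were above the floor. Of 8 sensors of nucleic acids above it 2 were lower at 8 hours (14.6% of all genes), the kinases TBK1 (-1.46) and EIF2AK2 (-0.86). None passed at 2 or 24 hours.
Of 34 further interferon-induced genes 16 were above the floor, and their medians were -0.04, -0.06 and 0.00. HERC5, the ligase of ISG15 (-1.16), and NMI (-1.45) were lower at 8 hours, as were 14.6% of all genes. The HGF value of HERC5 was under the floor there (25.0). At 24 hours 0 passed, and UBE2L6, the conjugating enzyme of ISG15, was at -0.66. NMI also passed as lower between vehicle arrays for 24 over 8 hours. Of 26 further genes of antigen presentation 16 were above the floor, and CANX, the chaperone calnexin, was lower at 8 hours (-0.53), as it was between vehicle arrays for 24 over 8 hours. None of the 16 passed at 24 hours. There their ratios ran from -0.82 for HLA-DRB1, a class II chain, to 0.23 for CANX, with a median of -0.05. RFX5, a factor that binds class II promoters, was at -0.56, and its partners RFXANK and RFXAP were at 0.12 and 0.14.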

How the data were processed

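The 6 arrays, 1 per condition, were read as linear intensities. The authors deposited 1 intensity per array for each of the 54675 probe sets. The submitters' processing notes name MAS5 (version not given in the sources used here), and the study's methods add quantile normalization, an average of 150 and a floor of 30, but the deposited array means range from 149.1 to 205.4 and values under 30 are present. Average and floor were therefore applied here, and quantile normalization as an alternative. Conditions were taken from the sample labels.

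Gene names come from the platform annotation, which gives 1 symbol to 41091 probe sets, several to 1801 and none to 11777. Genes, lists, tests and alternatives were chosen with earlier results of these data known. Those with values in every array are, by rule, genes that pass the selection rule at any time, genes of 1 sign at all times with a mean log2 ratio of at least 0.5 in size and the brightest gene of each role (ISG20, PSMB9, HLA-DMB, IFIT1, IRF7, IFITM2, ISG15, TAPBP and B2M). The others described were chosen after their values were seen. Of the other lists up to 4 genes that pass the rule were named, and PSME1, the constitutive proteasome subunits, BRD2, SOCS1, UBE2L6, RFX5 and its partners and HLA-DRB1 were added after their values were seen.

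Limma (lmFit and eBayes, Benjamini-Hochberg over 10002 genes) tested the shared effect. The selection rule and limma were tested on simulated data. The number of arrays limits the precision, and no depth applies. Alternatives were another floor or none (log2 of the value plus 1), quantile normalization, centred ratios, other ways to combine probe sets, other vehicle references and thresholds. The limma fit was repeated without the block, with a trend in the variance, unfiltered and without each time. The steps ran in Python 3.11.15, R 4.3.3, limma 3.58.1, pandas 2.3.3, numpy 2.4.6 and matplotlib 3.10.9.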

Additional observations from a re-analysis of the deposited data

How the results depend on the processing

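ISG20 passed the selection rule as higher at 8 and at 24 hours under 12 of 12 alternatives each, with log2 ratios from 1.07 to 1.61 and from 1.79 to 2.34. PSMB9 and HLA-DMB passed as lower at 24 hours under 10 of 12 each, with ratios from -1.30 to -0.92 and from -1.34 to -0.34. Both were lost at 3-fold, PSMB9 also against the vehicle arrays of 2 and 8 hours, and HLA-DMB also with a floor of 60. Without a floor, where values near 0 enter, the counts of higher and lower genes were 1 and 1 at 2 hours, 3 and 5 at 8 hours, and 7 were lower at 24 hours, where 602 and 577, 955 and 2745, and 877 of all 10791 genes passed. At 24 hours the count of lower genes was 1 with a floor of 60 (48 of all genes) and 0 at 3-fold (11 of all genes). At 8 hours quantile normalization gave 3 higher and 1 lower (1086 and 998 of all genes), and centred ratios 2 higher (741 of all genes). The median of all genes of the group at 8 hours became 0.24 without a floor, 0.25 under quantile normalization and 0.24 with the brightest probe set, that of the interferon-induced genes 0.22 under quantile normalization, and that of the antigen presentation genes 0.071 without _s_at and _x_at probe sets. At 24 hours the median of all genes of the group was -0.46 without a floor, -0.049 with a floor of 60 and -0.0087 without _s_at and _x_at probe sets. For interferon-induced genes it was 0.00 with a floor of 60 and -0.040 without those probe sets, and for antigen presentation genes -0.50 without a floor. Each median without _s_at and _x_at probe sets covers only the genes that have another probe set. Of counts outside the vehicle arrays, whose alternatives were chosen after seeing the data, quantile normalization gave 2 above at 2 hours (18.2% of all genes). A floor of 60 gave 2 below at 8 hours (27.5% of all genes) and 9 below at 24 hours (19.3%). The cause of these differences was not tested. Limma called 3 genes without the block, 2 with the brightest probe set and 403 at an unadjusted p of 0.05, of which 3 belong to the group. Leaving out 1 time gave 0 genes each time. At 8 hours quantile normalization also turned the sign of IRF1, IRF9, OAS3, OASL, IFI35 and HLA-DMB to above 0 (0.22, 0.04, 0.10, 0.25, 0.20 and 0.21), and centring that of OAS3 (0.03), none of which passed the rule. No paired analysis by replicate number was possible because each condition has 1 array, and the time point served as the block. The number of arrays and the floor limit what can be read of the dim genes.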
